A study of Mus musculus with 7 samples.

Results

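The genes described here are the 8 members of the AP-1 transcription factor family Fos, Fosb, Fosl1, Fosl2, Jun, Junb, Jund and Atf3, out of 19937 genes measured. Each was chosen by name and read from the probe set that names it alone, of which each had 1. The study hybridised RNA from mouse tissue to 7 Affymetrix Mouse Gene 1.0 ST arrays in 4 groups. At day 6 there were 2 arrays of Iqgap1 knockout and 2 of wild type, and at day 0 there were 2 of knockout and only 1 of wild type. All mice were of a mixed C57BL/6 and 129 background, and topical 4OHT (4-hydroxytamoxifen, a ligand used to activate tamoxifen-dependent proteins) was the labelled agent of every group, day 0 included. The labels gave no age, no inducible protein and no tissue beyond mouse tissue. Nothing in them states that replicates are different animals, so the p-values reflect spread among these arrays that, within the knockout groups, may be only technical. Wild-type day 6 replicates 1 and 2 differed in log2 signal of Xist (10.30 and 3.73) and of the Y-linked gene Eif2s3y (3.72 and 9.41). The spread of that pair is therefore not technical alone. Values are log2 expression, so a difference of 1 is a doubling of signal.

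AP-1 is a dimer that forms through leucine zippers and binds short palindromic DNA sites. Fos proteins (Fos, FosB, Fra-1 from Fosl1, Fra-2 from Fosl2) pair with Jun proteins, while Jun proteins (c-Jun, JunB, JunD) also pair with each other, and Atf3 is a stress-induced partner that often represses. Several of these genes are early response genes: ERK signalling through ternary complex factors and SRF induces Fos and Fosb, and the kinase JNK phosphorylates c-Jun. In skin, AP-1 takes part in keratinocyte differentiation, in wound and stress responses and in Ras-driven papilloma growth. Iqgap1, the gene knocked out here, encodes a scaffold that binds kinases of the Ras-ERK cascade.

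The 150 bases before the start of transcription are shown for the members whose window holds TGACG or TGACNTCA, forms of the cyclic AMP response element. Elements further from the start were not read. Sequences are those of RefSeq on GRCm38.p6, written 5′ to 3′ on the gene's strand; 7 of the 8 members matched that table and Fosl1 did not. Capitals mark TGACG, the core of the cyclic AMP response element, on either strand. They also mark TGACNTCA, its full form with any base at N, on the gene's strand alone. TGACNTCA holds TGACG where its N is G.
Fosb, chr7:19310046-19310195, minus strand: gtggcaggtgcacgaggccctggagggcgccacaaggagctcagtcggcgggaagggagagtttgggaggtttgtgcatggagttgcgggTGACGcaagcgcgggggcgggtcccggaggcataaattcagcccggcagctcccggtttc
Atf3, chr1:191183334-191183483, minus strand: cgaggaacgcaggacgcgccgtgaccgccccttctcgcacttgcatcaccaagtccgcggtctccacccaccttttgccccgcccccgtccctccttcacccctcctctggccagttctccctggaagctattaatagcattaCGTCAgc
Fos, chr12:85473740-85473889, plus strand: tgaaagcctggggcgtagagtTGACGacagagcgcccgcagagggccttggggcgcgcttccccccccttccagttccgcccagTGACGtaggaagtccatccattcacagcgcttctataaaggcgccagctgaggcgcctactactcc
Junb, chr8:84978749-84978898, minus strand: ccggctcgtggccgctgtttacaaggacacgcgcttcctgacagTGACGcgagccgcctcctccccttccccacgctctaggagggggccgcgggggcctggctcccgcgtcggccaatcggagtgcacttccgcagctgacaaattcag
Jun, chr4:95052223-95052372, minus strand: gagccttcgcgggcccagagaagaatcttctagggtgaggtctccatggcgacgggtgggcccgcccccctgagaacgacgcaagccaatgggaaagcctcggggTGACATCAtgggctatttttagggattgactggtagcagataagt
TGACG lay in 4 of the 7 windows, and in 13.3% of 32851 promoter windows of the same length. It began 60 bases before the start in Fosb, 106 in Junb, 66 and 129 in Fos, and on the opposite strand 7 in Atf3. On the gene's strand, TGACNTCA was found in Jun alone, 45 bases before the start, and in 3.64% of all windows. The AP-1 site TGANTCA, searched in the same way, was in 0 of the 7 windows and in 4.24% of all windows. Fosl2 and Jund held none of these 3 motifs in these searches. A match is a description of these letters, not of binding.

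Iqgap1 itself was lower on every knockout array. Its log2 signal was 8.58 and 8.67 in knockout tissue, with 10.11 and 10.59 in wild-type tissue, at day 6, and 9.02 and 8.99 in knockout tissue, with 9.94 in wild-type tissue, at day 0. The 7 arrays had overall medians of 5.61 to 5.79. The wild-type day 0 array and wild-type day 6 replicate 1 had Xist signal (10.30 and above) and no Y-linked signal, while the other 5 arrays were the reverse. At day 0, genotype and this split cannot be told apart, whereas the day change in knockout lies wholly within the 5 arrays without Xist signal. Keratinocyte markers were high on all 7 arrays but not level: the mean of the 6 was 12.17 and 12.17 in knockout at day 6, against 11.39 and 12.10 in wild type, and 11.82 and 11.95 in knockout at day 0, against 11.23 in wild type. Both arrays with Xist signal were the lowest of their day. Krt5, the highest of the 6, stood between 12.1 and 12.8, while Krt1, a keratin of differentiating cells named after its values were seen, spanned 9.49 to 12.27 and was lowest on wild-type day 6 replicate 1. In bulk tissue, fewer cells of a type and less RNA per cell cannot be told apart.

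The first comparison asked how the family changed from day 0 to day 6 of treatment over both genotypes. Fosb, Atf3 and Jund fell and Junb rose, while Fos, Jun, Fosl1 and Fosl2 did not pass the test. Fosb was 14.4-fold lower at day 6 and Atf3 6.63-fold lower, against 1.79-fold lower for Jund and 1.52-fold higher for Junb. The family thus had 3 members lower and 1 higher of 8, with a median log2 difference of -0.11. Over all 19937 genes, 11.5% changed (5.62% lower and 5.85% higher), with a median of 0.06. Each call is a limma adjusted p under 0.05, from a fit with genotype as a covariate. The 4 members that changed were also the 4 whose day 6 and day 0 arrays did not overlap, as was the case for 9.66% of all genes in the lower direction and 11.9% in the higher.

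**Figure D1:**
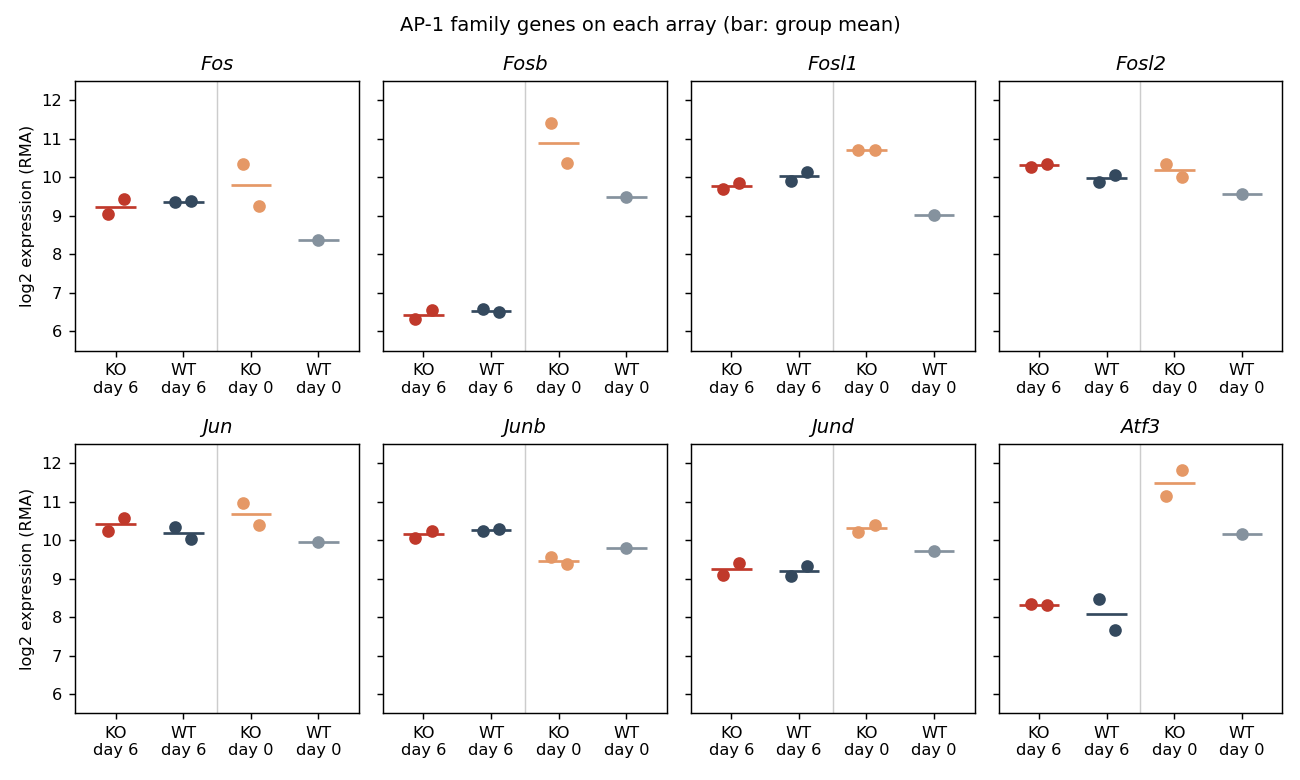
Log2 RMA expression (vertical axis, the same scale in every panel) of the 8 AP-1 genes on each array, by group (KO, Iqgap1 knockout; WT, wild type); points are arrays and bars group means. Fosb lies between 6.32 and 6.58 on the 4 day 6 arrays and between 9.48 and 11.41 on the 3 day 0 arrays, the widest separation of the 8.

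Fosb encodes a Fos protein and, by splicing, a shorter form without the activation domain; the probe set was not split by form. Its log2 level was 6.32 and 6.55 in knockout tissue, with 6.58 and 6.50 in wild-type tissue, at day 6. At day 0 it was 11.41 and 10.36 in knockout and 9.48 in wild type. All 4 day 6 arrays sat within a narrow band far below the 3 day 0 arrays, which differed among themselves. The fitted log2 difference was -3.84 ± 0.38 (SE, limma adjusted p = 0.00273), and it ranked 23 from the lowest of all genes. In knockout alone it was -4.45 ± 0.33 (SE, limma adjusted p = 0.000547). In wild type, where day 0 is 1 array, it was -2.94 ± 0.40 (SE, limma adjusted p = 0.00799).

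Atf3, an early gene of many stress responses, stood at 8.34 and 8.31 in knockout tissue, with 8.47 and 7.67 in wild-type tissue, at day 6. At day 0 it was 11.15 and 11.83 in knockout and 10.15 in wild type. The groups of the 2 days did not overlap, and at day 0 both knockout arrays lay above the wild-type one. The log2 difference over both genotypes was -2.73 ± 0.32 (SE, limma adjusted p = 0.00459). In knockout it was -3.16 ± 0.32 (SE, limma adjusted p = 0.00155). In wild type it was -2.08 ± 0.39 (SE, limma adjusted p = 0.0255). That last call was lost without wild-type day 6 replicate 2, with a log2 difference of -1.68 and limma adjusted p = 0.0594, and without either knockout day 6 array (limma adjusted p = 0.0515).

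Jund, a Jun protein usually present in resting cells, had 9.08 and 9.41 in knockout tissue, with 9.07 and 9.33 in wild-type tissue, at day 6, against 10.21 and 10.40 in knockout tissue, with 9.71 in wild-type tissue, at day 0. Every day 6 array was lower than every day 0 array. The log2 difference was -0.84 ± 0.17 (SE, limma adjusted p = 0.0284) over both genotypes and -1.06 ± 0.19 (SE, limma adjusted p = 0.0120) in knockout. In wild type it was -0.51 ± 0.23 (SE) and did not pass (limma adjusted p = 0.286).

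Junb, which can oppose c-Jun on shared targets, was the member that rose. Its level was 10.06 and 10.24 in knockout tissue, with 10.24 and 10.29 in wild-type tissue, at day 6, against 9.55 and 9.38 in knockout tissue, with 9.79 in wild-type tissue, at day 0. The day 6 arrays lay above the day 0 arrays in both genotypes. The log2 difference was 0.61 ± 0.12 (SE, limma adjusted p = 0.0277) over both genotypes and 0.69 ± 0.16 (SE, limma adjusted p = 0.0310) in knockout. In wild type it was 0.48 ± 0.20 (SE, limma adjusted p = 0.236). The calls of Junb and Jund over both genotypes were less firm than those of Fosb and Atf3. Without any 1 of the 4 knockout arrays neither passed (limma adjusted p between 0.0753 and 0.114), and without wild-type day 6 replicate 1 Jund did not (limma adjusted p = 0.0558). Fosb and Atf3 passed in all 16 other settings tried, with limma adjusted p up to 0.0146 for Fosb and 0.0226 for Atf3.

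Fos, the founding member and a textbook output of ERK signalling, did not pass. It stood at 9.04 and 9.43 in knockout tissue, with 9.35 and 9.39 in wild-type tissue, at day 6, and at 10.36 and 9.25 in knockout tissue, with 8.38 in wild-type tissue, at day 0. The 4 day 6 arrays lay close together inside the wide range of the day 0 arrays. Its log2 difference was 0.06 ± 0.40 (SE, limma adjusted p = 0.949) over both genotypes. Within genotypes it was -0.57 ± 0.35 in knockout (SE, limma adjusted p = 0.351) and 0.99 ± 0.43 in wild type (SE, limma adjusted p = 0.262). The knockout value rested on its day 0 arrays: it was -0.011 without replicate 1 of day 0, and -1.12 without replicate 2, where it passed (limma adjusted p = 0.0460).

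Jun, the main dimer partner of Fos proteins, had 10.25 and 10.57 in knockout tissue, with 10.33 and 10.03 in wild-type tissue, at day 6, against 10.96 and 10.39 in knockout tissue, with 9.95 in wild-type tissue, at day 0. The groups overlapped, and the log2 difference was -0.07 ± 0.21 (SE, limma adjusted p = 0.881). Fosl2, which encodes Fra-2, had 10.28 and 10.35 in knockout tissue, with 9.88 and 10.07 in wild-type tissue, at day 6, and 10.34 and 10.01 in knockout tissue, with 9.57 in wild-type tissue, at day 0. Its log2 difference was 0.24 ± 0.14 (SE, limma adjusted p = 0.339), with arrays of the 2 days overlapping. Fosl2 was the least variable member, with an SD of 0.28 over the 7 arrays, and Fosb the most variable, with 2.17.

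Fosl1 encodes Fra-1, a Fos protein without a strong activation domain that is often high in Ras-transformed cells. It fell in knockout and rose in wild type, so that its average over both genotypes was near 0. Its level was 9.71 and 9.85 in knockout tissue, with 9.91 and 10.14 in wild-type tissue, at day 6, and 10.70 and 10.70 in knockout tissue, with 9.02 in wild-type tissue, at day 0. At day 6 the genotypes were close, and at day 0 the wild-type array lay below the other 6 arrays. The log2 day change was -0.92 ± 0.16 in knockout (SE, limma adjusted p = 0.0112) and 1.01 ± 0.20 in wild type (SE, limma adjusted p = 0.0312). The genotype difference in that change was -1.93 ± 0.26 (SE, limma adjusted p = 0.0159), and Fosl1 was the member that passed this test, which 3.10% of all genes did (1.35% lower and 1.76% higher). Over both genotypes the change was -0.15 ± 0.38 (SE, limma adjusted p = 0.849).

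**Figure D2:**
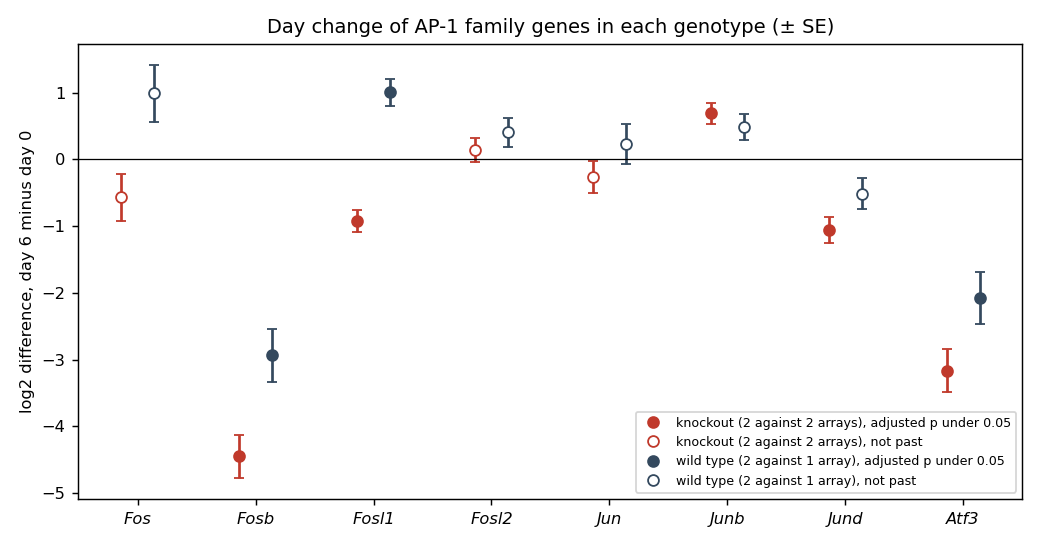
Log2 difference of day 6 minus day 0 (vertical axis) for each AP-1 gene in knockout (red, left) and wild type (dark, right); bars are ± SE and filled points passed a limma adjusted p of 0.05. The point of Fosl1 lies at -0.92 in knockout and at 1.01 in wild type, while Fosb and Atf3 lie below 0 in both.

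The genotype difference for Fosl1 turned on day 0 and its single wild-type array. At day 0 Fosl1 was 3.22-fold higher in knockout than in wild type, a log2 difference of 1.68 ± 0.20 (SE, limma adjusted p = 0.00430). It was the 1 member of 8 to pass there, where 14.4% of all genes did (8.53% higher and 5.86% lower). In the 6 arrays left without the wild-type day 0 array, the day change over both genotypes, which knockout alone then sets, was -0.92 with limma adjusted p = 0.0112. The genotype difference in the day change did not pass without either knockout replicate of either day (limma adjusted p between 0.0531 and 0.0833). It cannot be had without the wild-type day 0 array. That array carries Xist signal and the 2 knockout day 0 arrays do not. Cell type markers differed at day 0 too. The mean of 6 fibroblast markers was 11.98 and 11.98 in knockout, against 10.47 in wild type, and 3 of the 6 were higher (median 1.82). The mean of 5 endothelial markers was 9.003 and 8.997 in knockout, against 7.62 in wild type, and 2 of the 5 were higher (median 1.53). Of the adipocyte and skeletal muscle lists 1 of 6 each was higher, and of 5 mast cell markers 1 was lower. Their part in the day 0 differences of Fosl1 and the other members was not tested.

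In knockout, the comparison that lies within the arrays of 1 kind, 5 of the 8 members changed: Fosb, Atf3, Jund and Fosl1 fell and Junb rose. Of all genes 16.3% changed in that comparison (9.07% lower and 7.24% higher). Fosl1 and Jund did not pass without knockout day 0 replicate 1, day 0 replicate 2 or day 6 replicate 1 (limma adjusted p between 0.0545 and 0.0898). Junb did not pass without any 1 of the 4 knockout arrays (limma adjusted p between 0.103 and 0.194). In wild type 3 members passed, Fosb and Atf3 falling and Fosl1 rising, where 7.11% of all genes passed (3.61% lower and 3.51% higher). The wild-type call of Fosl1 was lost without any 1 knockout array or wild-type day 6 replicate 2 (limma adjusted p between 0.0575 and 0.0735). The means of these day changes share no arrays, but both tests take their spread from 1 fit of all 7 arrays. The wild-type change rests on 1 array at day 0. Apart from Fosl1, no member passed the test of the genotype difference in the day change, with Fosb at -1.51 ± 0.51 (SE, limma adjusted p = 0.196) and Fos at -1.55 ± 0.55 (SE, limma adjusted p = 0.215). Without knockout day 0 replicate 2, however, Fosb passed (-2.04, limma adjusted p = 0.0464) and Fosl1 did not. Without knockout day 0 replicate 1 the value of Fosb was -0.99. Centring each array on its median raised every knockout day change by 0.11. The knockout changes were then -4.34 for Fosb, -3.06 for Atf3, -0.95 for Jund, -0.82 for Fosl1 and 0.79 for Junb.

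The next comparison asked whether loss of Iqgap1 altered the family at day 6. None of the 8 members passed at a limma adjusted p under 0.05, none had an unadjusted p under 0.05, and 0% of all genes passed, Iqgap1 included. At an unadjusted p under 0.05, 5.93% of all genes did. Without wild-type day 6 replicate 2 some genes passed at the adjusted threshold, none of them a member. Every wild-type array then left has Xist signal and no knockout array does, so genotype and that split cannot be told apart there. With all arrays kept, the log2 differences of knockout minus wild type lay between -0.24 for Fosl1 and 0.34 for Fosl2. The 95% interval, not adjusted over genes, was -0.88 to 0.67 for Fosb, -0.51 to 1.01 for Atf3, -0.97 to 0.70 for Fos and -0.35 to 0.81 for Jun. It was -0.63 to 0.15 for Fosl1, -0.09 to 0.77 for Fosl2, -0.50 to 0.27 for Junb and -0.41 to 0.50 for Jund. A difference of 2-fold, 1 on the log2 scale, lies outside all of these intervals but that of Atf3. Against wild-type replicate 2 alone, the array without Xist signal, the differences lay between -0.36 for Fosl1 and 0.66 for Atf3, and none passed.

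**Figure D3:**
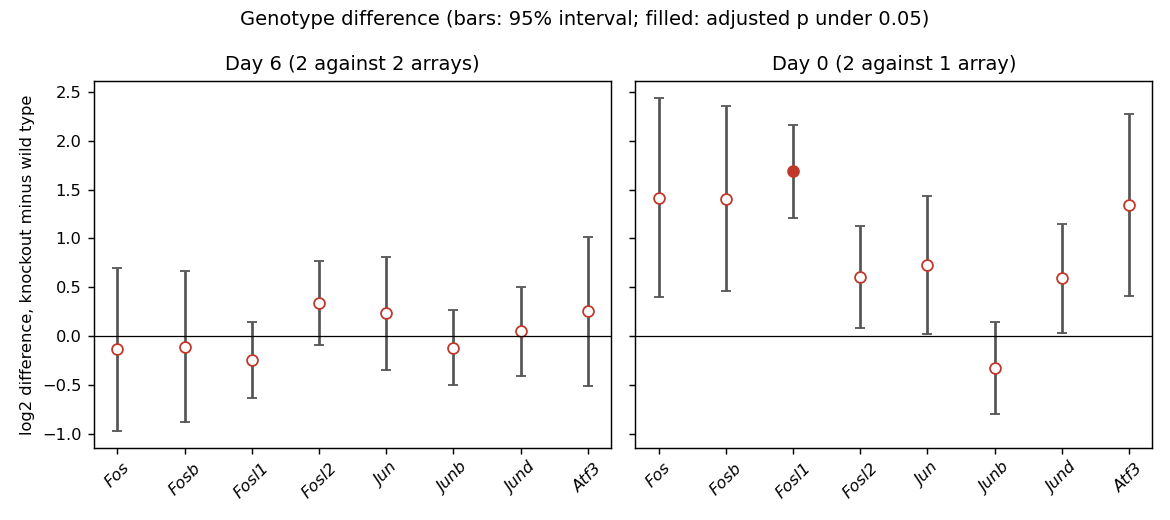
Log2 difference of knockout minus wild type (vertical axis) for each AP-1 gene at day 6 (left) and at day 0 (right); bars are 95% intervals of single genes and filled points passed a limma adjusted p of 0.05. All day 6 intervals include 0, and Fosl1 at day 0 is the one filled point, at 1.68.

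At day 0 knockout values lay above the wild-type array for 7 of 8 members, as for 36.0% of all genes. Both knockout values of Junb lay below it, as for 51.6% of all genes, with a log2 difference of -0.33 ± 0.20 (SE, limma adjusted p = 0.318). Besides Fosl1 the larger differences were those of Fos, 1.42 ± 0.43 (SE, limma adjusted p = 0.0725), Fosb, 1.41 ± 0.40 (SE, limma adjusted p = 0.0611), and Atf3, 1.34 ± 0.39 (SE, limma adjusted p = 0.0658). These 3 did not pass. Fos and Fosb came to pass without knockout day 0 replicate 2 (limma adjusted p = 0.0167 and 0.0140), and Atf3 without either wild-type day 6 array (limma adjusted p = 0.0337). Over both days no member passed for genotype, and 0% of all genes did (18.7% at an unadjusted p under 0.05). Without wild-type day 6 replicate 2 some genes passed, but genotype and Xist signal cannot be told apart in that setting. With all arrays kept, the members' differences lay between -0.20 for Junb and 0.69 for Atf3. Fosl2 (0.45 ± 0.14, SE) was the member with an unadjusted p under 0.05.

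The wider network around AP-1 was read from lists of textbook members, chosen with earlier results of these data known. Over both genotypes 5.62% of all genes fell with day and 5.85% rose. Of 12 other bZIP proteins that pair or compete with AP-1, none rose or fell with day over both genotypes (median -0.10); the smallest p was that of Mafk at -0.72 ± 0.32 (SE, limma adjusted p = 0.215). Jdp2, Atf2 and Atf4 lay between -0.37 and -0.26. In knockout 1 of the 12 fell, where 9.07% of all genes did. In wild type, with 1 array at day 0, their median was 0.14. The median of knockout minus wild type at day 0 was 0.33, and that of the genotype difference in the day change -0.40. Of 13 kinases and regulators upstream of AP-1, Map2k1, which encodes the ERK kinase MEK1, rose 1.82-fold and Mapk14, which encodes the stress kinase p38 alpha, rose 1.45-fold, and 0 fell (median 0.14). Of SRF and its ternary complex factors, 4 measured, Elk3 rose 4.24-fold. Its arrays were at 10.28 and 10.12 in knockout tissue, with 9.98 and 10.15 in wild-type tissue, at day 6, against 8.29 and 8.74 in knockout tissue, with 7.38 in wild-type tissue, at day 0. Srf, Elk1 and Elk4 lay between -0.07 and 0.08.

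Of 22 other early response genes measured, Nr4a3, Nr4a1, Nr4a2 and Myc fell and Ier3 rose over both genotypes (median -0.22). Of all genes 5.62% fell and 5.85% rose. In knockout 8 fell and 1 rose (median -0.45), where 9.07% of all genes fell and 7.24% rose. In wild type, with 1 array at day 0, the median was 0.05, with 13 of the 22 above 0. At day 0 the median of knockout minus wild type was 0.75, against -0.09 over all genes. The median genotype difference in the day change was -0.78, against 0.06 over all genes. The orphan nuclear receptors Nr4a3 and Nr4a1 were 7.50-fold and 6.10-fold lower at day 6. Egr1, another ERK output gene, named here after its value was seen, was at -0.06 and Fos at 0.06, and neither passed. Nr4a2, likewise named after its value was seen, was 3.76-fold lower, and its day 0 level was 9.64 and 8.70 in knockout and 7.12 in wild type.

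Among genes known as AP-1 targets, rises outnumbered falls at day 6. Of 22 measured, 11 rose and 1 fell, with a median log2 difference of 1.01 against 0.06 over all genes. Of all genes 5.85% rose and 5.62% fell. This list too was chosen with earlier results of these data known. Mmp1a and Mmp9, matrix metalloproteinases, rose 26.8-fold and 21.9-fold, and the alarmins S100a8 and S100a9 rose 18.7-fold and 14.4-fold. On the day 0 arrays Mmp1a was at 4.01 to 4.19, at the level of Xist on arrays without its signal (3.55 to 4.03) or just above, so its fold has no firm size. Il6, a cytokine named here after its value was seen, was the target that fell, by 2.82 on the log2 scale. Its day 6 arrays were at 3.68 to 4.17, in or just above that same Xist range. Its day 0 arrays were at 7.52 and 5.17 in knockout and 7.19 in wild type, so this size is not firm either. In knockout 10 targets rose and 2 fell, where 7.24% of all genes rose and 9.07% fell. In wild type, with 1 array at day 0, the median of the targets was 1.36. At day 0 their median of knockout minus wild type was 1.17, against -0.09 over all genes. These targets are also regulated by other factors, and AP-1 activity was not measured.

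**Figure D4:**
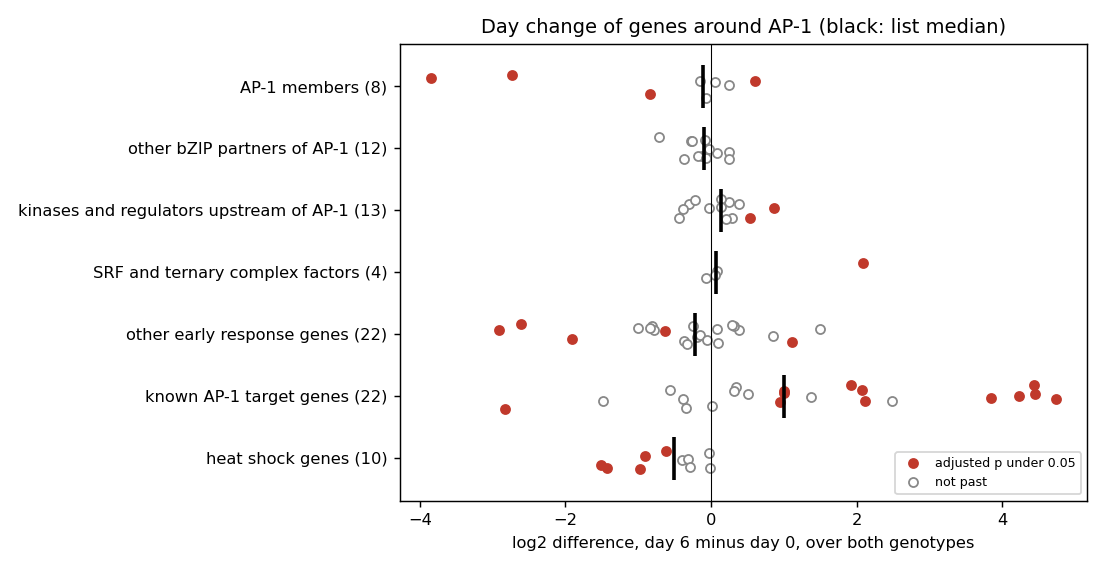
Log2 difference of day 6 minus day 0 over both genotypes (horizontal axis) for every measured gene of 7 lists, with the number measured in brackets; filled points passed a limma adjusted p of 0.05 and black lines are list medians. The targets centre at 1.01, while the AP-1 genes themselves centre at -0.11 with Fosb and Atf3 far to the left.

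Heat shock genes, which are induced by tissue handling as well as by stress, were also read. Of 10 measured, 5 fell and 0 rose over both genotypes (median -0.51), where 5.62% of all genes fell: Dnaja1, Hsph1, Hsp90aa1, Hspb1 and, named after its value was seen, Hspa1a. Hspa1a was 2.69-fold lower at day 6, with 9.59 and 9.41 in knockout and 8.96 and 9.37 in wild type, against 10.99 and 11.89 in knockout tissue, with 9.81 in wild-type tissue, at day 0. In knockout 4 of the 10 fell (median -0.81), where 9.07% of all genes fell. In wild type, with 1 array at day 0, the median was -0.54, with 2 of the 10 above 0. At day 0 the median of knockout minus wild type was 0.18, against -0.09 over all genes. The copy Hspa1b of Hspa1a is nearly identical, so signal may be shared. The part of handling in the falls of Fosb and Atf3 was not tested.

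Markers of other cell types moved with day as well, here over both genotypes, where 5.62% of all genes fell and 5.85% rose. The mean log2 level of 6 adipocyte markers was 6.29 to 7.34 at day 6 and 10.16 to 11.01 at day 0, and 5 of 6 fell. Of 6 skeletal muscle markers 5 fell, with list means of 9.07 to 9.82 at day 6 and 11.43 to 12.41 at day 0. Of 6 sebaceous gland markers 3 fell, with 6.05 to 8.87 at day 6 and 9.71 to 10.51 at day 0. Of 6 fibroblast markers 2 fell (9.31 to 10.88 at day 6 and 10.47 to 11.98 at day 0). Keratinocyte markers, of which 2 of 6 rose, stood at 11.39 to 12.17 at day 6 and 11.23 to 11.95 at day 0. No macrophage (6), neutrophil (6) or mast cell (5) marker passed, of 5 endothelial markers 1 rose, and of 5 T cell markers 1 rose and 2 fell. By genotype, 0 of 6 neutrophil markers rose in knockout (median 0.50), and the wild-type median was 2.48. Of 5 mast cell markers 1 fell in knockout (median -0.43), and the wild-type median was 0.41. Of 6 fibroblast markers 3 fell in knockout (median -1.89), and the wild-type median was -0.54. In knockout 9.07% of all genes fell and 7.24% rose, and wild type had 1 array at day 0. The part of cell composition in the AP-1 changes was not tested.

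Genes with the pattern most like a member were ranked by the root mean square difference of values centred on each gene's own mean over the 7 arrays. Predicted genes, RIKEN clones, small RNAs, olfactory receptors and symbols that are clone or accession names were left out of the ranking, as were the members. For Fosb the nearest were Phkg1 (0.25), a muscle phosphorylase kinase subunit, Sema3d (0.28) and Rbp4 (0.29), the retinol carrier made by fat and liver. For Atf3 they were Cd207 (0.23), the Langerhans cell lectin, Tspan8 (0.29) and Mrgprb3 (0.30). Cd207 was at 4.84 and 4.89 in knockout tissue, with 4.87 and 4.75 in wild-type tissue, at day 6, against 7.67 and 8.13 in knockout tissue, with 6.84 in wild-type tissue, at day 0. For Fosl1 they were Csf2rb (0.098), Arfgap3 (0.13) and Pxn (0.13), and for Fos they were Ocel1 (0.21), Epas1 (0.24) and Zic1 (0.27). Among the members, the pair with the least difference was Fosl2 and Jun (0.23), and Fosb and Atf3 differed by 0.75. These likenesses are descriptions over 7 arrays that share a day split.

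**Figure D5:**
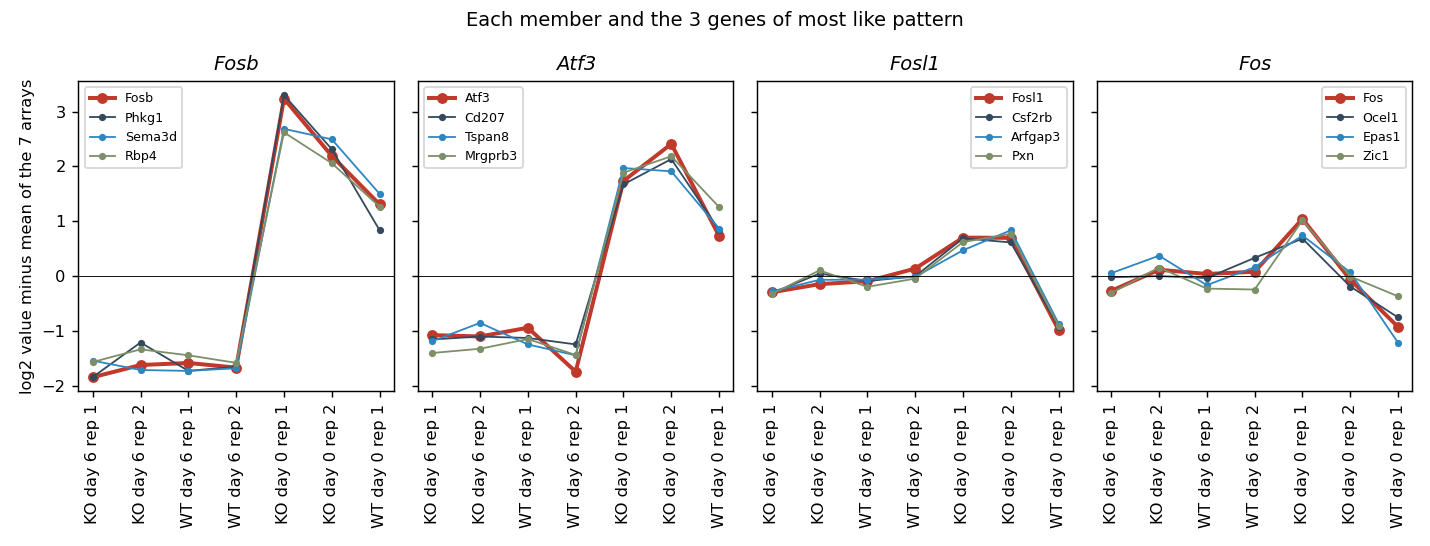
Log2 value minus the mean of the 7 arrays (vertical axis) by array for the 4 most variable members (thick red). Thin lines are the 3 genes nearest to each among the genes ranked. Lines join arrays only to guide the eye. Fosb and Atf3 and their nearest genes part the days, whereas for Fosl1 and Fos the wild-type day 0 array is the lowest.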

How the data were processed

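The authors deposited log2 values. The submitters' processing notes name RMA and R 2.11.1, and values from 2.37 to 13.38 fit a log2 scale. RMA corrects background, normalizes arrays by quantiles and summarizes probes, which compresses low values. Genome build and RMA options are not given in the sources used here. Of 34760 probe sets, 21640 had 1 gene symbol, 1321 several and 11799 none in the platform's gene table. Each gene was read from the probe set naming it alone with the highest mean, giving 19937 genes. Groups came from sample titles. Differences were tested two-sided with limma 3.58.1 in R 4.3.3, with Benjamini-Hochberg adjustment over all 19937 genes and a threshold of 0.05. Day and genotype over all arrays came from an additive fit (4 residual degrees of freedom), and the others from a fit of group means with 3, where wild type at day 0, being 1 array, takes its spread from the other groups. Of these tests, only that of day over both genotypes was tried on simulated data, and its outcome is not given here. The number of arrays limits the precision. The members and lists were chosen with earlier results of these data known. Apart from the members, up to 4 genes of a list with the smallest p for day are named, with exceptions stated. Alternatives left out each array, added a replicate block or a term for Xist signal, and changed scaling, variance model, filter and probe sets.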

Additional observations from a re-analysis of the deposited data

Results flagged for a closer look

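Fosl1 stood out because its day change differed between the genotypes by the test of that difference itself: the day 6 minus day 0 change in knockout minus that in wild type was -1.93 on the log2 scale (limma adjusted p = 0.0159). Both knockout day 0 arrays were at 10.70 and the single wild-type day 0 array was at 9.02. No group holds more than 2 arrays, so single arrays could not be tested as outliers within a group.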

How the results depend on the processing

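Of 848 single-member values under other settings, 768 kept their direction and their side of the threshold, 36 lost and 12 gained a call, and 32 turned sign, all of the last without a call on either side. The members past the threshold numbered 4 for day over both genotypes (2 to 5 leaving out 1 array). The 5 came without the wild-type day 0 array, where knockout alone sets the day change. For day in knockout the number was 5 (2 to 5), and for day in wild type 3 (1 to 3, and 1 with a term for Xist signal). For the genotype difference in the day change the number was 1 (0 to 1 leaving out 1 array). That 1 was Fosl1 without either wild-type day 6 array, and Fosb in place of Fosl1 without knockout day 0 replicate 2. For genotype at day 0 the number was 1 (1 to 3 leaving out 1 array, 4 with trend and robust options, 2 with a mean of at least 5). The count over all genes moved with the arrays left out too. Over both genotypes 2286 changed with day, and fewer did without any 1 array other than wild-type day 0. Without the wild-type day 0 array the count was 3251, but knockout alone then sets the day change. Knockout alone also sets it without both arrays with Xist signal. The replicate numbers pair no samples by the labels (correlations of deviations 0.086, 0.037 and 0.23). With a replicate block the same number of members, 4, passed for day, 1745 genes did in all, and Fosl1 in wild type did not (0.94, limma adjusted p = 0.0570). It was also lost over all probe sets (limma adjusted p = 0.0552), as was Junb in knockout (limma adjusted p = 0.0553). Sign turned, without a call, as follows, and where the comparison itself stayed the same the cause was not tested. Without both arrays with Xist signal no wild-type day 0 array is left, so knockout alone sets the day change. Genotype over both days is then knockout against wild-type replicate 2 at day 6. The values were then -0.57 for Fos with day and -0.082 for Jund at day 6. With genotype over both days they were -0.16 for Fos, -0.064 for Fosb, -0.36 for Fosl1 and -0.082 for Jund. With a term for Xist signal they were -0.055 for Fos with day, -0.056 for Fosl1 and -0.013 for Jund with genotype, and -0.082 for Jund at day 6. With arrays centred they were 0.026 for Jun with day and -0.021 for Jund at day 6. Leaving out 1 array, the day change ran from -0.57 to 0.49 for Fos, from -0.92 to 0.080 for Fosl1 and from -0.26 to 0.13 for Jun. These 3 low ends are those without the wild-type day 0 array, where knockout alone sets the day change. In knockout it ran from -1.12 to -0.011 for Fos, from -0.027 to 0.30 for Fosl2 and from -0.55 to 0.018 for Jun. Genotype over both days ran from -0.14 to 0.74 for Fos, -0.11 to 0.71 for Fosb and -0.24 to 0.78 for Fosl1. Here the low ends are those without the wild-type day 0 array, where the day 6 arrays alone set the genotype difference. Genotype at day 6 ran from -0.33 to 0.057 for Fos, -0.22 to 0.0046 for Fosb, -0.11 to 0.21 for Jund and -0.15 to 0.66 for Atf3. Without the wild-type day 0 array, comparisons that need it had no value.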
